A study of Homo sapiens with 36 samples.

Results

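The genes described here carry out base excision repair and mismatch repair, together with 1 gene of direct damage reversal. They were chosen by name as 29 genes with these roles, and the measurement for each was every array probe that carries its gene symbol and has values. Of the 29 genes, 26 had values, while probes of NEIL2, PMS2 and MGMT held no value on any array, so that these genes were not analysed here. The 26 genes are a small share of the 8741 genes with values in the series. Their 28 probes with values, of 32 on the array, had them on all 36 arrays.

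Base excision repair removes single damaged or misplaced bases. A DNA glycosylase cuts the base from its sugar, an endonuclease opens the strand at the empty site, a polymerase fills the gap, and a ligase seals the nick. Mismatch repair works behind the replication fork, where a MutS protein pair finds a mispaired base, a MutL pair is recruited and an exonuclease removes the new strand. Photoproducts made by UV are themselves removed mainly by another pathway, nucleotide excision repair.

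RNA was measured in U373neo and U373cc3, clones of the established human glioblastoma cell line U373, which lacks the protein CC3 (TIP30). U373neo carried the empty vector and U373cc3 constitutively expressed exogenous CC3. Both clones were harvested untreated and 2 h after UV, which the labels give as 20 J/m2 while the methods of the study give a lower dose. Each of the 4 groups had 3 biological replicates on 3 technical arrays each. With and without CC3 there was 1 clone each, so that an effect of CC3 and any other difference between these 2 clones cannot be told apart, and p-values measure the spread between cultures. In bulk RNA, fewer cells of a kind and less RNA per cell cannot be told apart either.

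The values are fluorescence intensities of a single-dye array. Intensities of different probes are not compared with each other. The untreated arrays shared 1 distribution, with medians between 894.9 and 896, and the UV arrays another, with medians between 746.3 and 748.1. Clones were therefore compared within a treatment on intensities as deposited, and UV changes on intensities normalized jointly over all 36 arrays. Correlations were 0.979 to 0.996 between technical arrays and 0.918 to 0.977 between arrays of different groups. Of 12 astrocyte and glioma markers 2 carried values, SOX9 and PTPRZ1, so that the labelled cell type could not be checked further. The 4 neuron markers with values summed to between 9715 and 13964 over the groups, the 2 fibroblast markers to between 1131 and 2741, and no epithelial or leukocyte marker carried a value. The fibroblast sum was lower in U373cc3 than in U373neo in both treatments. LUM made up most of it, at 2114 in U373neo and 987.4 in U373cc3 without UV and 2396 and 1115 after it. COL1A1, the other marker with values, was at 188.9 and 160.5 without UV but 163.5 and 191.3 after it. The difference is thus that of LUM, and its part in the results below was not tested. A gene was called at a limma p-value under 0.05 after Benjamini-Hochberg adjustment across every probe tested.

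FEN1 had the largest difference between the clones among the 26 genes, in both treatments. It encodes the flap endonuclease that trims displaced strands in long-patch base excision repair and processes Okazaki fragments. In untreated U373neo its intensity was 7109.8, 5763 and 6182 in the 3 replicates, and in untreated U373cc3 it was 3746, 3439 and 3578. After UV it was 7354, 7411 and 7345 in U373neo and 2903, 3048 and 2575 in U373cc3. Every U373cc3 replicate was below every U373neo replicate. The log2 difference was -0.82 (SE 0.09, limma adjusted p = 2.46e-05) without UV, 1.76-fold lower, and -1.38 (SE 0.09, adjusted p = 4.47e-07) after UV, 2.6-fold lower.

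FEN1 lies on chromosome 11, where 65.6% of 497 measured genes were lower in untreated U373cc3 and 63.7% of 499 after UV. Of the 40 measured genes nearest to FEN1, 20 on each side, 36 were called lower and 3 higher without UV, with a median log2 difference of -0.66, and 13 of them had a lower value than FEN1. After UV 35 were called lower and 2 higher, the median was -0.76, and 1 neighbour, FADS3, had a lower value than FEN1. The difference of FEN1 without UV thus lay within the range of its neighbours, from -1.29 to 0.69. Whether the position of the gene has a part in the FEN1 difference was not tested.

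**Figure D1:**
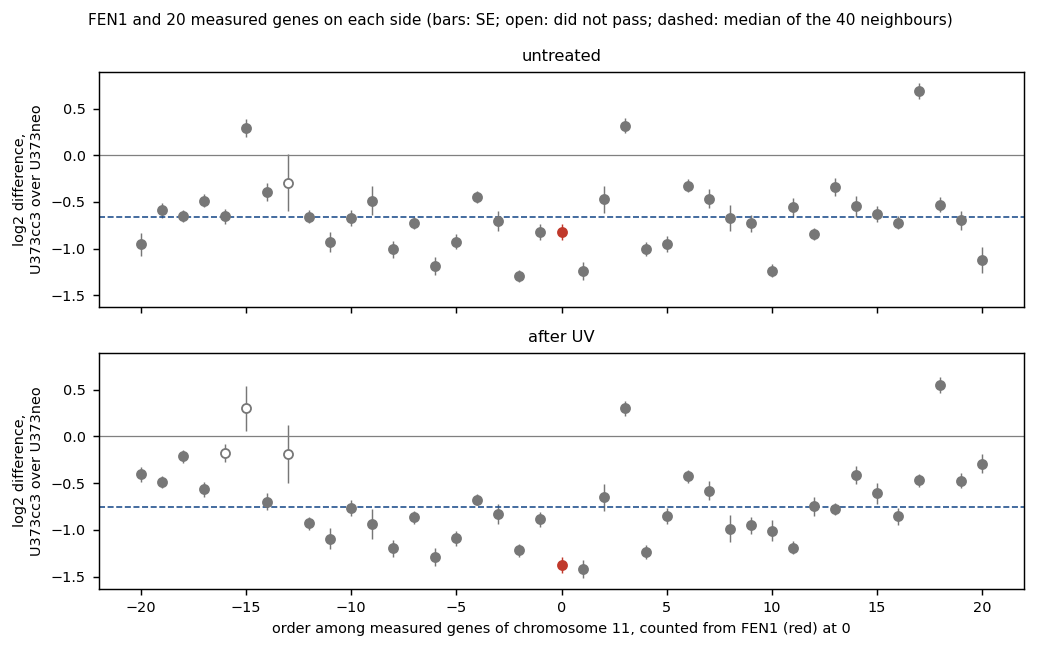
Log2 difference of U373cc3 over U373neo (vertical axis, bars SE) for FEN1 in red and the 20 measured genes on each side of it along chromosome 11, in gene order (horizontal axis), without UV (top) and after UV (bottom). Filled points were called and open points were not, and the dashed lines at -0.66 and -0.76 are the medians of the 40 neighbours.

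MLH3 showed the opposite difference. It encodes a MutL protein of mismatch repair that also acts in meiotic recombination. Its intensity was 690.4, 553.7 and 479.7 in untreated U373neo against 928.7, 924.3 and 918.5 in untreated U373cc3, and 323.6, 401.1 and 498.4 against 627.6, 651.1 and 609.5 after UV. The groups did not overlap in either treatment, and the U373neo replicates spread far more widely than those of U373cc3. The log2 difference was 0.70 (SE 0.15, adjusted p = 0.00324) without UV and 0.65 (SE 0.15, adjusted p = 0.00489) after UV. The call after UV was kept in 21 of 22 alternative settings and lost with the methods' t-test (adjusted p = 0.0677). FEN1 and MLH3 were the genes called between the clones in both treatments. Array serial numbers fell in 3 ranges, unequally spread over the groups. With the serial range as a term in the fit, TDG (-0.26 after UV, adjusted p = 0.0107), NEIL1 (-0.30 after UV, adjusted p = 0.0481) and MUTYH (0.35 without UV and 0.29 after it) were called in both as well, and so were TDG and MUTYH within 1 range of serial numbers.

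Without UV, 7 of the 26 genes were called between the clones, 4 higher and 3 lower in U373cc3, which is 26.9% of the genes. Over all 12300 probes tested 38.2% were called, 20.8% higher and 17.3% lower. The replicates of the clones did not overlap for 7 of the genes and 49.4% of probes. Their median log2 difference was 0.03, beside 0.01 over all probes. The genes next in size were glycosylases. NEIL1, which removes oxidized pyrimidines, had intensities of 569.2, 674.7 and 683.4 in U373neo and 420.4, 401 and 470.1 in U373cc3, with no overlap, a log2 difference of -0.58 (SE 0.11, adjusted p = 0.00131). TDG, which removes thymine or uracil opposite guanine and acts in DNA demethylation, had 6267, 6798 and 6717 in U373neo and 5579, 5058 and 5312 in U373cc3, again with no overlap, a log2 difference of -0.31 (SE 0.08, adjusted p = 0.0118).

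MPG and OGG1 were called higher in untreated U373cc3. MPG, the glycosylase for alkylated purines, had 1223, 1309 and 1269.6 in U373neo and 1577, 1433 and 1490.5 in U373cc3, a log2 difference of 0.24 (SE 0.07, adjusted p = 0.0144). OGG1, which removes 8-oxoguanine, had 341.9, 223.6 and 210.7 in U373neo and 424.2, 318.3 and 335.3 in U373cc3. The highest U373neo replicate lay above 2 of the U373cc3 replicates, and the log2 difference of 0.50 had a wide error (SE 0.17, adjusted p = 0.036). APTX, which removes AMP groups left by failed ligation, completed the 7 at 0.22 (SE 0.06, adjusted p = 0.0127). OGG1 kept its call in 16 of 22 alternative settings and was not called without U373cc3 untreated replicate 1 or 3 or without U373neo untreated replicate 2 or 3. APTX kept its call in 19 settings and MPG in 21, both losing it when 1 untreated U373cc3 replicate was left out (replicate 3 for APTX, replicate 1 for MPG), while FEN1, MLH3, NEIL1 and TDG kept theirs in all 22. SMUG1 was not called in the main fit (-0.19, limma adjusted p = 0.193). It was called lower with the serial range as a term (-0.28), within 1 range of serial numbers (-0.40) and without U373neo untreated replicate 1 (-0.30).

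After UV, 7 of the 26 genes differed between the clones, 3 higher and 4 lower in U373cc3, beside 38% of all probes, 18.2% higher and 19.8% lower. Replicates did not overlap for 12 of the genes and 51% of probes. Besides FEN1 and MLH3 the differences were small. NEIL3, a glycosylase known for unhooking interstrand crosslinks in replicating DNA, had 304.7, 291.2 and 276.6 in U373neo and 386.5, 408.2 and 319.8 in U373cc3, a log2 difference of 0.35 (SE 0.11, adjusted p = 0.0246). UNG, the main uracil glycosylase, had 1621, 1597 and 1567 in U373neo and 1338, 1109.8 and 1406 in U373cc3, a log2 difference of -0.32 (SE 0.11, adjusted p = 0.0337). The groups did not overlap for either gene.

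NTHL1 and MBD4 were also called lower in U373cc3 after UV. NTHL1, which removes oxidized pyrimidines, had 3356, 3441 and 3311 in U373neo and 2593, 2644 and 3035 in U373cc3, a log2 difference of -0.29 (SE 0.09, adjusted p = 0.0177). MBD4, which removes thymine or uracil mispaired at CpG sites, had 2528, 2620.3 and 2961 in U373neo and 2286, 2058 and 2334 in U373cc3, a log2 difference of -0.28 (SE 0.08, adjusted p = 0.0127). Neither pair of groups overlapped. POLL, a gap-filling polymerase, had 332.4, 335.2 and 311.3 in U373neo and 386.7, 391.1 and 418.5 in U373cc3, with no overlap and a log2 difference of 0.29 (SE 0.09, adjusted p = 0.0279). These smaller calls depended on single replicates: 2 of the 7 genes kept their call without U373cc3 replicate 2, 3 without U373neo replicate 2 and 3 without U373neo replicate 3. They also depended on the arrays used: within the range of serial numbers that both groups share, 3 of the 7 were called (FEN1, MLH3 and MBD4), with NEIL3 at 0.14 (adjusted p = 0.507), NTHL1 at -0.15 (adjusted p = 0.138), UNG at -0.18 (adjusted p = 0.217) and POLL at 0.36 (adjusted p = 0.0747).

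**Figure D2:**
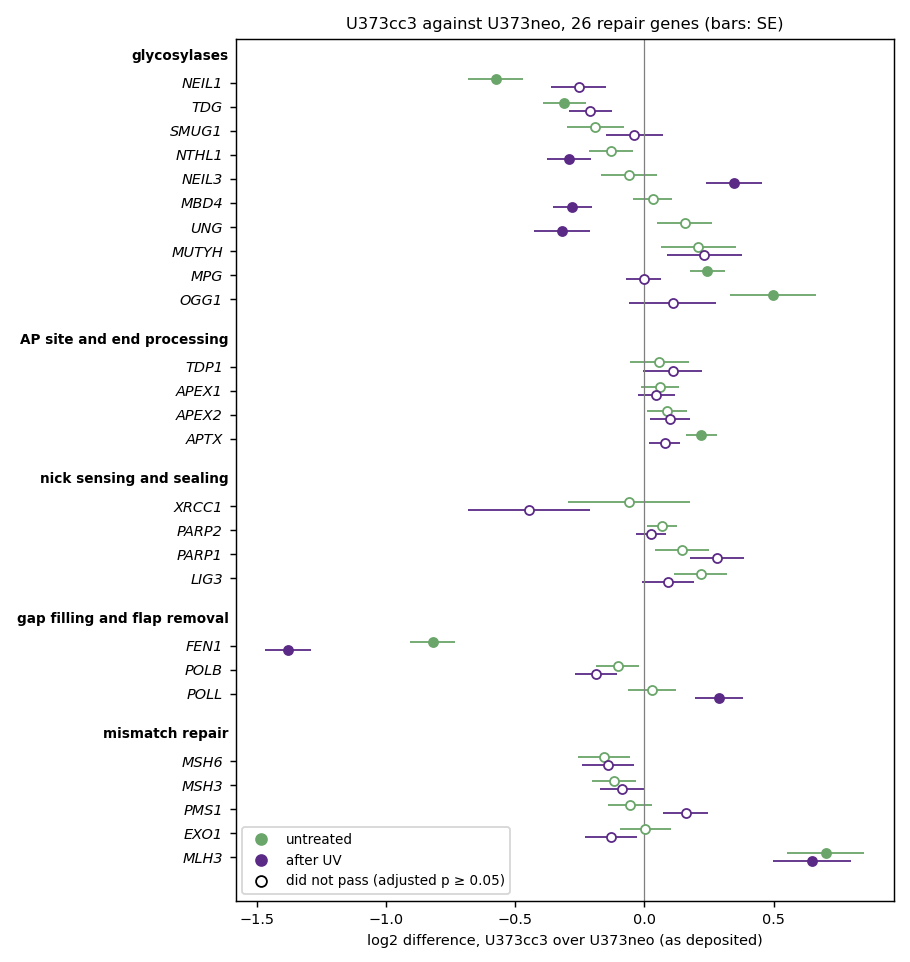
Log2 difference of U373cc3 over U373neo (horizontal axis, points with SE) for the 26 genes by role, without UV in green and after UV in purple, on intensities as deposited. FEN1 stands lowest at -0.82 and -1.38 and MLH3 highest at 0.70 and 0.65, and most other genes have open points, which were not called.

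UV was followed by changes in both directions. In U373neo 15 of the 26 genes were called, 10 higher and 5 lower, beside 59.5% of 11602 probes, 32.8% higher and 26.7% lower. In U373cc3 12 were called, 7 higher and 5 lower, beside 57.7% of probes, 30.8% higher and 26.9% lower. Untreated and UV replicates did not overlap for 15 of the genes in each clone, beside 64.3% of probes in U373neo and 65.4% in U373cc3. The median log2 change of the 26 genes was 0.06 in U373neo and 0.02 in U373cc3, beside 0.07 and 0.06 over all probes. The split between rises and falls depended on the scaling. With each array centred on its median, which put the median over all probes at 0.19 in U373neo and 0.20 in U373cc3, 13 rose and 4 fell in U373neo and 10 rose and 4 fell in U373cc3. With intensities as deposited, where the medians over all probes were -0.05 and -0.04, 8 rose and 9 fell in U373neo and 5 rose and 9 fell in U373cc3. The share of higher calls over all probes moved from 55.1% to 65.5% and 42.2% in U373neo, and from 53.4% to 66.6% and 38.6% in U373cc3, under the same scalings.

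Between the clones, 5 genes rose in both (MPG, NEIL1, MUTYH, NTHL1 and POLB) and 5 fell in both (TDG, NEIL3, TDP1, MSH6 and EXO1). The call was made in U373neo alone for UNG, MBD4, OGG1, APTX and FEN1, and in U373cc3 alone for SMUG1 and POLL. The other 9 were called in neither clone.

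**Figure D3:**
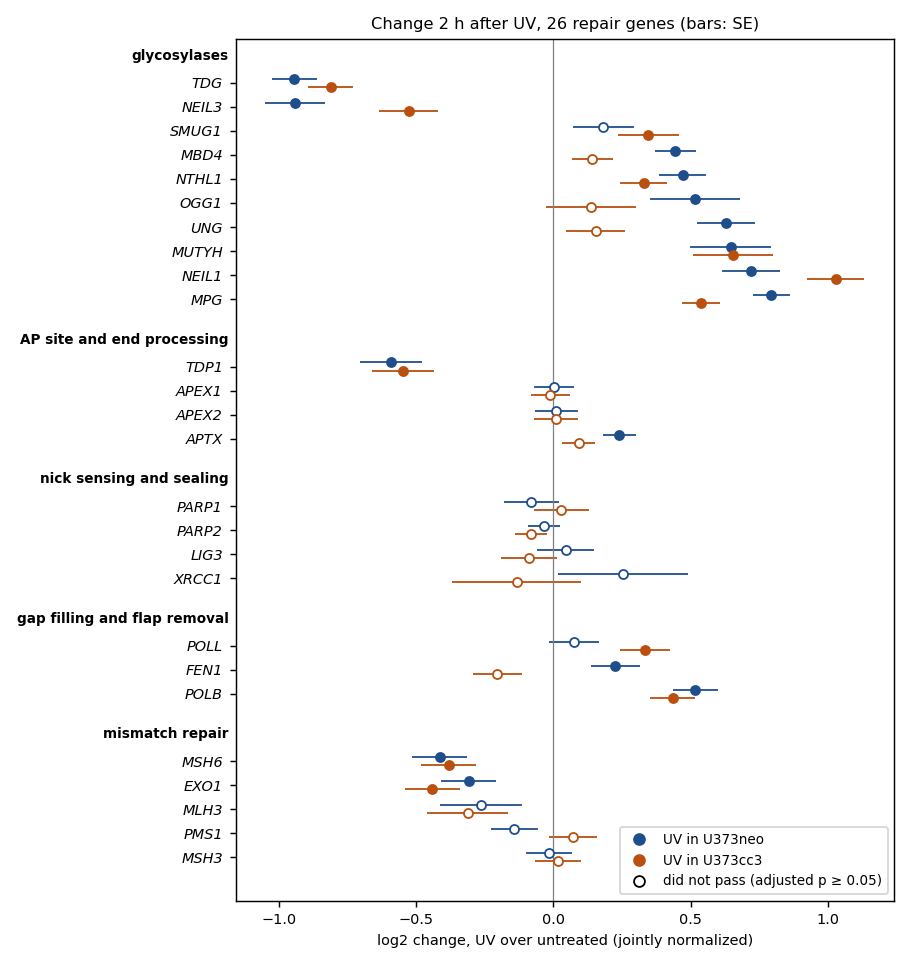
Log2 change 2 h after UV over untreated (horizontal axis, points with SE) for the 26 genes by role, in U373neo (blue) and U373cc3 (orange), on jointly normalized intensities. TDG and NEIL3 fell while most other glycosylases lie to the right of 0, and the 4 genes of nick sensing and sealing have open points, which were not called.

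The glycosylases, which start base excision repair, held most of the calls. Of 10 measured, 7 rose, 2 fell and 1 was not called in U373neo, and 5 rose, 2 fell and 3 were not called in U373cc3, beside 32.8% of all probes higher and 26.7% lower in U373neo and 30.8% and 26.9% in U373cc3. Under median centring 8 and 6 rose, and with intensities as deposited 6 and 4 rose, while TDG and NEIL3 were the 2 that fell under each scaling. TDG had joint intensities of 6220, 6786 and 6696 in untreated U373neo and 3060, 3543 and 3672 after UV, a log2 change of -0.94 (SE 0.08, adjusted p = 2.06e-06). In U373cc3 it had 5503, 4960 and 5220 without UV and 3019, 3112 and 2808 after it, a change of -0.81 (SE 0.08, adjusted p = 9.42e-06). TDG was thus 1.92-fold lower in U373neo and 1.75-fold lower in U373cc3, with no overlap in either clone.

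NEIL3 fell as far as TDG in U373neo and less far in U373cc3. Its joint intensities were 635.2, 530.2 and 633.9 in untreated U373neo and 329.2, 311 and 295.3 after UV, a log2 change of -0.94 (SE 0.11, adjusted p = 1.69e-05). In U373cc3 they were 521.4, 595.1 and 612.6 without UV and 417.6, 440.7 and 345.9 after it, a change of -0.53 (SE 0.11, adjusted p = 0.00157). The difference of these changes, 0.41 (SE 0.15), had an adjusted p of 0.124.

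MPG rose most among the genes in U373neo, and NEIL1 in U373cc3. MPG had joint intensities of 1131, 1214 and 1176 in untreated U373neo and 2069, 2078 and 1958 after UV, a log2 change of 0.79 (SE 0.07, adjusted p = 1.76e-06). In U373cc3 it had 1470, 1335 and 1388 without UV and 2012, 1921 and 2157 after it, a change of 0.54 (SE 0.07, adjusted p = 4.93e-05). NEIL1 had 523.8, 619.6 and 626.7 in untreated U373neo and 1046, 1007 and 862.4 after UV, a change of 0.72 (SE 0.10, adjusted p = 0.000106). In U373cc3 NEIL1 had 390.6, 372.9 and 434.7 without UV and 733.1, 854.9 and 857.3 after it, a change of 1.03 (SE 0.10, adjusted p = 1.00e-05), or 2.04-fold. The groups of both genes were apart in both clones.

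MUTYH and UNG were the other glycosylases among the largest rises. MUTYH, which removes adenine paired with 8-oxoguanine, had 1845, 1113 and 1173 in untreated U373neo, where replicate 1 stood apart, and 2139, 2101 and 2058 after UV, a log2 change of 0.65 (SE 0.15, adjusted p = 0.00252). In U373cc3 it had 1573, 1514 and 1579 without UV and 2375, 2465 and 2503.5 after it, a change of 0.65 (SE 0.15, adjusted p = 0.00282). All 3 arrays of U373neo untreated replicate 1 lay in a range of serial numbers without other U373neo arrays. For MUTYH this replicate and the range therefore cannot be told apart. Within that range the MUTYH difference between the untreated clones was 0.00, with 1 array of U373cc3, beside 0.45 in each other range. UNG had 1199.9, 1038 and 1085 in untreated U373neo and 1737, 1711 and 1681 after UV, a change of 0.63 (SE 0.11, adjusted p = 0.000339). In U373cc3 UNG had 1426, 1128 and 1170.5 without UV and 1437, 1197 and 1510.5 after it, groups that overlapped, and its change of 0.16 (SE 0.11, adjusted p = 0.232) was not called. The remaining called glycosylases changed by 0.33 to 0.52 on the log2 scale, with MBD4 at 0.44 and OGG1 at 0.52 in U373neo, NTHL1 at 0.47 in U373neo and 0.33 in U373cc3, and SMUG1, a second uracil glycosylase, at 0.35 in U373cc3. The rise of OGG1 was not called with intensities as deposited, nor was that of NTHL1 in U373cc3. SMUG1 was not called without U373cc3 untreated replicate 1 or UV replicate 1 or 2, and OGG1 not without U373neo untreated replicate 2 or 3 or UV replicate 2.

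**Figure D4:**
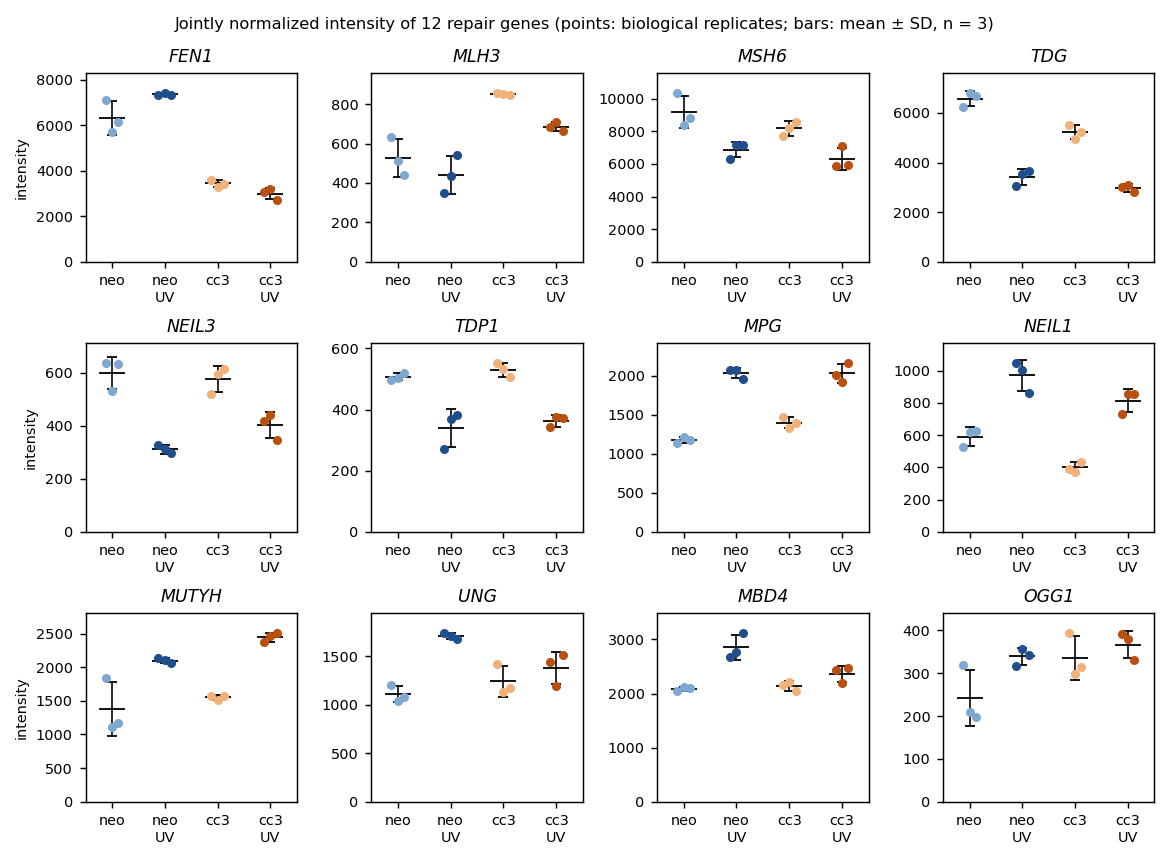
Jointly normalized intensity (vertical axes, linear from 0) of 12 of the genes in the 3 biological replicates of each group, with U373neo in blue, U373cc3 in orange and darker points after UV. Bars are the mean and SD of 3 replicates. In FEN1, MSH6, TDG, NEIL3, TDP1, MPG, NEIL1 and MUTYH the UV points of each clone are apart from its untreated points.

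Of the 4 genes that process abasic sites and DNA ends, TDP1 was the one called in both clones. TDP1 removes trapped topoisomerase I peptides from DNA ends. Its joint intensities in U373cc3 were 551, 531.1 and 506.2 without UV and 341.4, 375.1 and 371.4 afterwards, a log2 change of -0.55 (SE 0.11, adjusted p = 0.00171), and in U373neo it changed by -0.59 (SE 0.11, adjusted p = 0.000791). APTX rose by 0.24 in U373neo (SE 0.06, adjusted p = 0.00454), a call that was lost with intensities as deposited. APEX1, the main endonuclease for abasic sites, had intensities between 56670 and 65486 over the replicates. Its array intensities reached 65487, near the upper limit of the scanner, so that changes of APEX1 cannot be measured well. It changed by 0.00 in U373neo and -0.01 in U373cc3 (SE 0.07 for both) and was not called, but under median centring it was called in both clones, at 0.30 in U373neo and 0.28 in U373cc3. That centring put the median over all probes at 0.19 and 0.20. As deposited, the means of APEX1 without UV and after it were 60582 and 63016 in U373neo and 63130 and 64999 in U373cc3. The calls under median centring are therefore not read as a rise of APEX1.

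The genes that sense and seal nicks were not called in any comparison. PARP1 and PARP2 bind strand breaks and make poly(ADP-ribose), XRCC1 is the scaffold recruited by it, and LIG3 is the ligase that XRCC1 holds. Their log2 changes after UV lay between -0.08 and 0.25 in U373neo and between -0.13 and 0.03 in U373cc3. With intensities as deposited PARP2 was called lower in both clones and LIG3 in U373cc3. The closest to a call between the clones was PARP1 after UV, at 0.28 (SE 0.10, adjusted p = 0.0524), which passed at 0.40 without U373cc3 UV replicate 3 and at 0.34 without U373neo UV replicate 1. LIG3 passed between the untreated clones at 0.31 without U373neo untreated replicate 1. XRCC1 was measured poorly. In U373cc3 after UV its joint intensity was 861.9 in replicate 1 and 1924 and 1683 in the others, and its SE was 0.24. Changes of XRCC1 as small as those called for NTHL1 (0.33) and SMUG1 (0.35) in U373cc3 could therefore have been missed. The XRCC1 difference between the clones after UV, -0.45 (adjusted p = 0.163), became -0.67 and passed without U373cc3 UV replicate 2.

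Of the genes that fill the gap, POLB was called in both clones and POLL in 1. POLB, the main base excision repair polymerase, rose by 0.52 in U373neo (SE 0.08, adjusted p = 0.000202) and by 0.44 in U373cc3 (SE 0.08, adjusted p = 0.000901). A second, dimmer POLB probe changed by 0.23 (adjusted p = 0.0294) and 0.17 (adjusted p = 0.0914). POLL changed by 0.34 in U373cc3 (SE 0.09, adjusted p = 0.00842) and by 0.08 in U373neo (adjusted p = 0.494). The POLL call in U373cc3 was lost with intensities as deposited (0.12, limma adjusted p = 0.266) and within 1 range of serial numbers (0.28, limma adjusted p = 0.184). It was also lost with the methods' t-test (adjusted p = 0.0683). FEN1 had joint intensities of 7113, 5692 and 6131 in untreated U373neo and 7337, 7391 and 7326 after UV, a change of 0.23 (SE 0.09, adjusted p = 0.0455). In U373cc3 FEN1 had 3599, 3285 and 3428 without UV and 3051, 3198 and 2719 after it, a change of -0.20 (SE 0.09, adjusted p = 0.0684). This fall passed with intensities as deposited (-0.34, adjusted p = 0.00649), with the replicate as a random block over 36 arrays (adjusted p = 0.0453), with the serial range as a term (-0.20, adjusted p = 0.0238), within 1 range of serial numbers (-0.35, adjusted p = 0.0183) and without U373neo untreated replicate 1 (adjusted p = 0.0318). The call in U373neo was kept in 12 of 22 alternative settings and lost when any 1 of the 3 UV replicates of U373neo was left out.

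Of the 5 mismatch repair genes measured, 2 fell after UV in each clone, MSH6 and EXO1, and 3 were not called. This is 40% lower and 0% higher, beside 26.7% and 32.8% of all probes in U373neo and 26.9% and 30.8% in U373cc3, and nothing particular to these 5 genes can be read from it. MSH6, which pairs with another MutS protein to find single mismatches, changed by -0.41 in U373neo (SE 0.10, adjusted p = 0.00366) and -0.38 in U373cc3 (SE 0.10, adjusted p = 0.00693). EXO1, the exonuclease that removes the mismatched strand, changed by -0.31 (SE 0.10, adjusted p = 0.0198) and -0.44 (SE 0.10, adjusted p = 0.00307). EXO1 was not called in U373neo without untreated replicate 1 (-0.27) or 2 (-0.30) or without UV replicate 1 (-0.27). The count depended on the scaling: under median centring EXO1 alone fell in each clone, and with intensities as deposited all 5 fell in U373neo and 3 in U373cc3. MLH3 changed by -0.26 in U373neo and -0.31 in U373cc3, PMS1 by -0.14 and 0.07, and MSH3, the MutS protein for larger loops, by -0.02 and 0.02. The second PMS1 probe was not called either.

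None of the 26 genes passed the test of the difference of the UV change between the clones, for which 6.2% of probes were called, 2.2% higher and 4% lower. With limma 5 genes had an unadjusted p under 0.05, beside 24.6% of all probes. They were FEN1 at -0.43 (SE 0.13, adjusted p = 0.0662), UNG at -0.47 (SE 0.15, adjusted p = 0.086), MBD4 at -0.30 (SE 0.11, adjusted p = 0.111), MPG at -0.26 (SE 0.10, adjusted p = 0.129) and NEIL3. The differences of the 26 genes ran from -0.47 to 0.41 on the log2 scale, with a median of -0.03, the same as over all probes to this precision. A gene called in 1 clone and not in the other, such as UNG, is therefore not shown by this test to respond differently. FEN1, UNG, MBD4, NEIL3 and OGG1 passed under some settings, as described in the closing section. UNG did so with the replicate as a random block over 36 arrays (-0.47, limma adjusted p = 0.021). It also passed with the serial range as a term (-0.40, limma adjusted p = 0.0326).

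In the 3 ranges of array serial numbers, all 9 arrays of U373neo after UV lay in 1 range, against 3 of U373cc3 after UV. Within that range all 7, 15, 12 and 7 called genes kept their direction for the untreated clones, the UV changes of U373neo and of U373cc3, and the clones after UV. Within it 6, 14, 11 and 3 of them were also called. The arrays of this range had taken part in the calls, so that a kept direction is no independent check. In the other ranges, where both groups of a comparison had arrays, all called genes kept their direction too. For the untreated clones, however, 1 of the groups had only 1 array in each of these other ranges.

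Gene length went with the UV change. The 26 genes ranged from 2.54 kb (APEX1) to 222.2 kb (MSH3). Over them Spearman's rho between length and log2 change was -0.45 in U373neo and -0.31 in U373cc3, and over all 7950 genes with a length it was -0.54 and -0.40. These are correlations across genes that share the same arrays, and genes are not independent replicates. All measured genes were split into 4 equal classes by length. Of the 9 repair genes in the shortest class, none over 11.2 kb, 6 rose in U373neo and 5 in U373cc3, and none fell. Of all 1988 genes in that class 59.9% rose and 6.04% fell in U373neo, and 50.2% rose and 11% fell in U373cc3. Of the glycosylases that rose in U373neo, NTHL1, MPG, MBD4, NEIL1 and MUTYH were in this shortest class, and UNG and OGG1 were not. The part of gene length in the rises of the glycosylases was not tested. The second class held 4 of the repair genes. Of these TDG, at 23 kb, and MSH6, at 27 kb, fell in both clones, and UNG rose in U373neo. Of all 1987 genes in that class 39% rose and 16.3% fell in U373neo, and 31.3% rose and 22.8% fell in U373cc3. Their median was 0.15 in U373neo and 0.08 in U373cc3. The part of gene length in the falls was not tested.

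**Figure D5:**
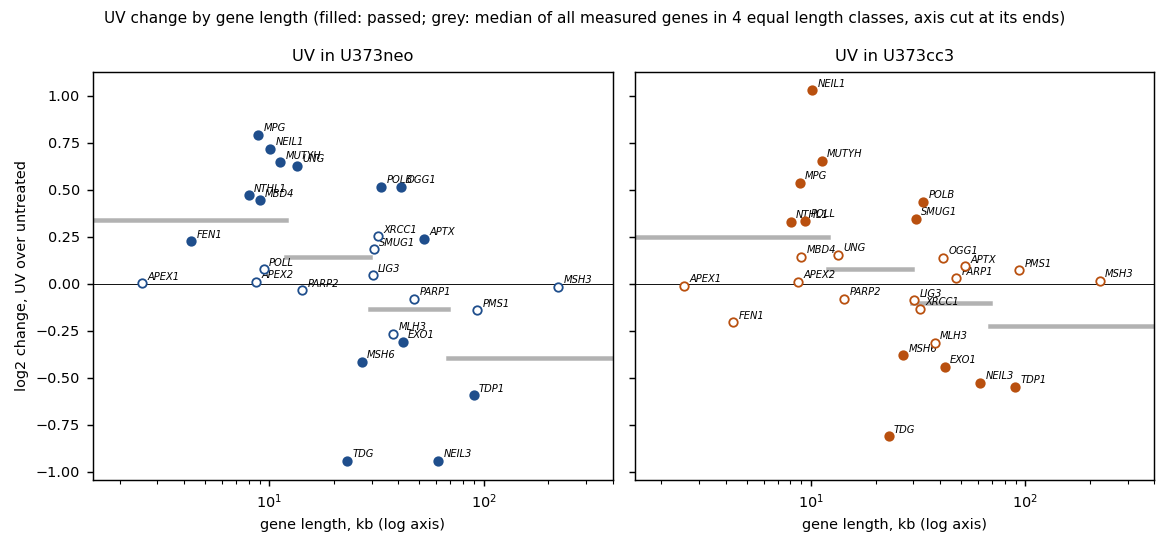
Log2 change after UV (vertical axis) against gene length in kb (horizontal log axis) for the 26 genes in U373neo (left) and U373cc3 (right), with called genes filled. Grey lines are the medians of all measured genes in each of 4 equal length classes, which go from 0.34 to -0.40 in U373neo and from 0.25 to -0.22 in U373cc3.

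Promoter sequence is shown for 4 genes at the ends of these comparisons: FEN1 with the largest difference between the clones, TDG and NEIL3 with the largest falls after UV, and MPG with the largest rise in U373neo. Each is the 250 bases before the gene's start in RefSeq (GRCh38.p14), on the plus strand, at chr11:61792661-61792910 for FEN1, chr12:103965622-103965871 for TDG, chr4:177309624-177309873 for NEIL3 and chr16:77975-78224 for MPG. Capitals mark the E-box CACGTG and the GC box GGGCGG on either strand.
FEN1: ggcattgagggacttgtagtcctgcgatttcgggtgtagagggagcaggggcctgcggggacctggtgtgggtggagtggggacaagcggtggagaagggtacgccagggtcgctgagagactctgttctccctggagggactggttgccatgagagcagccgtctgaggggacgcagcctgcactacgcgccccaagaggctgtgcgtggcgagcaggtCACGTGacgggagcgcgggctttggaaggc
TDG: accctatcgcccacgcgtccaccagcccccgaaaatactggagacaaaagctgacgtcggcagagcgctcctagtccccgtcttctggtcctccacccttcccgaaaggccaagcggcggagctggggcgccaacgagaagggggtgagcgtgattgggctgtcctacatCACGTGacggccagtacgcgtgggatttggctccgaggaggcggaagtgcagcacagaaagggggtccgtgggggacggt
NEIL3: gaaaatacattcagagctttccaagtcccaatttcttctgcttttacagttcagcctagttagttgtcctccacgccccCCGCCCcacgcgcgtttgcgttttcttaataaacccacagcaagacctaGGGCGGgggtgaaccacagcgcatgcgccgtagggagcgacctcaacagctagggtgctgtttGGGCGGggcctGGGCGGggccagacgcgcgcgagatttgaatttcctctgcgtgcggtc
MPG: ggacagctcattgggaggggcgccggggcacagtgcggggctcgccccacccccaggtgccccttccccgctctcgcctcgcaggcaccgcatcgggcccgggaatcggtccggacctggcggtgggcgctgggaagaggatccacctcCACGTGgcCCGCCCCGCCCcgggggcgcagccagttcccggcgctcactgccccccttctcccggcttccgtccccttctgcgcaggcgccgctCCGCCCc
FEN1, TDG and MPG each hold 1 CACGTG, at -30, -80 and -101 from the start, while NEIL3 holds 4 GC boxes and MPG 3, of which 2 overlap by a base. Promoters were found for 24 of the 26 genes. Any of its promoters held CACGTG in 7 of the 24 genes (29.2%), beside 7.73% of all 27305 genes, but this motif was searched for because it had been seen in the printed sequences, so its share is no independent count. The other motifs had been picked earlier, also with the results known. Of the 24 genes 18 held a GC box (75%, beside 46.2% of all genes), 14 a CCAAT box (CCAAT, 58.3% beside 37%) and 1, MSH3, an E2F-type motif (TTTGGCGC, TTTCGCGC or TTTCCCGC, 4.17% beside 2.85%). The 27305 genes include those without values in these cells, whereas the 24 genes all carry values, so that these shares come from unlike sets. All motifs were searched on both strands, and a match is a description of the letters only.

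Other genes of these pathways were counted from lists. Of 17 measured genes of the resynthesis machinery shared with replication, 6 rose and 4 fell after UV in U373neo (35.3% and 23.5%, beside 32.8% and 26.7% of all probes) and 7 rose and 4 fell in U373cc3 (41.2% and 23.5%, beside 30.8% and 26.9%). RPA3, a subunit of the single-strand binding protein RPA, rose by 1.73 (SE 0.11, adjusted p = 1.51e-07) and 1.46 (SE 0.11, adjusted p = 7.57e-07). RFC1, of the clamp loader, changed by -0.63 and -0.64. Between the clones 1 was higher and 5 lower in U373cc3 in each treatment (29.4% lower, beside 17.3% of all probes without UV and 19.8% after it), with HMGB1, a chromatin protein that aids long-patch repair, at -0.84 and -0.87. HMGB1 lies on chromosome 13, where 89% of measured genes were lower in untreated U373cc3 and 82.3% after UV.

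Of 11 measured accessory, reversal and nucleotide pool genes, 7 rose and 1 fell in U373neo (63.6% and 9.09%) and 6 rose and 1 fell in U373cc3 (54.5% and 9.09%), beside 32.8% and 26.7% of all probes in U373neo and 30.8% and 26.9% in U373cc3. NUDT1, which clears oxidized nucleotides, rose by 0.59 and 0.47, PARP3 by 0.58 and 0.55, and the helicase gene WRN changed by -0.71 and -0.64. In untreated U373cc3, 3 of the 11 were higher and 3 lower than in U373neo (27.3% each, beside 20.8% and 17.3% of all probes). After UV 2 were higher and 3 lower (18.2% and 27.3%, beside 18.2% and 19.8%). Among those lower in U373cc3, ALKBH3, an alkylation reversal enzyme on chromosome 11, had a log2 difference of -0.59 without UV and -0.48 after it. After UV, 9 of 27 measured S phase and proliferation genes rose and 8 fell in U373neo (33.3% and 29.6%, beside 32.8% and 26.7% of all probes). In U373cc3 1 rose and 8 fell (3.7% and 29.6%, beside 30.8% and 26.9%). The share that rose in U373cc3 was thus below that of all probes, while the other shares were near it. For the difference of the UV change 3 were called higher and 2 lower (11.1% and 7.41%, beside 2.2% and 4% of all probes). Between the clones 1 was higher and 9 lower in untreated U373cc3 (33.3% lower, beside 17.3% of all probes), and 12 were lower after UV (44.4%, beside 19.8%). FEN1, EXO1, MSH6 and NEIL3 are known to be expressed with proliferation, and the part of proliferation in their values was not tested.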

How the data were processed

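RNA of 12 cultures (4 groups of 3) was profiled on 36 Phalanx Human OneArray chips with Cy5. The deposited values are linear probe intensities, which the authors averaged per probe and normalized by quantiles in GeneSpring GX. Which arrays were normalized together is not given in the sources used here. Probes were named by the platform annotation (9659 of 13041 with values had 1 symbol, 9615 found in the gene table of GRCh38.p14). Intensities were taken to log2, averaged over the 3 technical arrays and fitted over the 12 replicates with limma 3.58.1 in R 4.3.3 (lmFit, contrasts.fit, eBayes), with Benjamini-Hochberg adjustment across every probe tested, after the procedure had been tested on simulated data. UV changes used quantile normalization over the 11602 probes present on all arrays. The probe with the highest mean stands for a gene. Replicate values are given for the 6 called genes with the largest changes in each comparison, and also for FEN1 throughout and for MBD4 between the clones after UV. Values of other genes were chosen after they were seen, except that the list genes follow the rule of the largest changes. The genes and lists were chosen with earlier results of these data known. Alternatives were other scalings, filters, models, the methods' t-test, the serial ranges and leaving out each replicate. The number of cultures, 3 in each group, limits the precision.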

Additional observations from a re-analysis of the deposited data

How the results depend on the processing

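Counts of called genes among the 26 held within 1.5 times under every alternative run for the untreated clones (7), UV in U373neo (15) and UV in U373cc3 (12), and leaving out single replicates gave 5 to 10, 12 to 15 and 11 to 13. For the clones after UV (7) the methods' t-test after Benjamini-Hochberg adjustment gave 3, and leaving out single replicates 3 to 8, not always the same genes. Within 1 range of serial numbers 3 of these 7 genes and 2 others were called. For the difference of the UV change the main count was 0 and leaving out single replicates gave 0 to 1. It was 1 (FEN1) under median centring, 1 (FEN1) with intensities as deposited, 2 (FEN1 and OGG1) within 1 range of serial numbers, 4 (FEN1, UNG, MBD4 and NEIL3) with the 36 arrays and the replicate as a random block, and 4 (FEN1, UNG, MBD4 and OGG1) with the serial range as a term. The cause was not tested. The 1 without a replicate was FEN1, without U373neo untreated replicate 1. The change of APEX1 after UV in U373cc3 turned from -0.01 to 0.28 (limma adjusted p = 0.00516) under median centring, for a probe near the upper limit of the scanner. Of the single-gene values under alternatives, 2672 kept direction and side of the threshold, 62 gained and 70 lost a call, and 1 reversed. Replicate numbers did not pair the cultures (correlations of deviations from -0.34 to 0.37), and a replicate block gave 7, 15, 12, 6 and 0 calls in the 5 comparisons.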
